A study of Mus musculus with 16 samples.

Results

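Medullary thymic epithelial cells (mTEC) of wild-type mice were compared between a fraction sorted for high surface CD80 (CD80hi) and a fraction sorted for low surface CD80 (CD80lo). The comparison used the 2 wild-type CD80hi arrays and the 2 wild-type CD80lo arrays, 4 of the 16 arrays of the series, and all probe sets other than the array's controls. The samples were chosen by their labels and not by any measured value. CD80hi and CD80lo mTEC from mice labelled as Aire knockout, with 2 arrays each, served as a separate set of arrays on which to look at each change again, and the rest were arrays of wild-type mTEC not split by CD80, of wild-type cortical epithelium (cTEC), and of macrophages and dendritic cells from wild-type thymus. Total RNA of the sorted cells was measured on a mouse oligonucleotide array. Neither strain, age and sex of the mice nor the structure of the Aire allele is given in the sources used here. It is likewise not stated whether separate animals gave the 2 samples of a group, so the p-values measure the spread between samples, which may be technical.

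The thymic medulla is where developing T cells that have passed selection in the cortex meet self antigens and are deleted or turned into regulatory cells. Its epithelial cells express genes of many other tissues, part of them under the control of the transcriptional regulator Aire, and show the products to T cells on MHC molecules. CD80 is a ligand of the T cell molecules CD28 and CTLA-4. It is low on immature mTEC, which divide and receive signals from their surroundings, and high on mature, mostly postmitotic cells. The question put to the files here was which functions besides the expression of other tissues' genes were gained and lost between these stages.

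Signals are linear intensities, given for sample 1 and sample 2 in that order. A change is the difference of the mean log2(signal + 4.8) between CD80hi and CD80lo cells, with its standard error after ±, and 4.8 is the 20th percentile of all values. The constant understates changes of dim genes. A gene was read from its brightest probe set and called at an adjusted p under 0.05 in a limma fit to all probe sets. Only called genes are said to have risen or fallen. In bulk RNA, fewer cells of a type and less RNA per cell cannot be told apart.

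The genes that mark the sort were checked first. Cd80 gave 61.3 and 87.5 in CD80hi cells, against 13.7 and 6.6 in CD80lo cells, a change of 2.43 ± 0.37 (adjusted p = 0.000558). Its probe set shares probes with similar sequences, and the other Cd80 probe set gave 3.12. Aire gave 1829 and 1705 in CD80hi cells, against 196 and 94.4 in CD80lo cells, a change of 3.65 ± 0.51 (adjusted p = 0.000263). Of the 10 thymic epithelial markers tested, Foxn1 gave 24.9 and 18.3 on the CD80hi arrays and 18.9 and 21.2 on the CD80lo arrays, and the epithelial adhesion protein Epcam gave 368 and 357 on the CD80hi arrays and 413 and 264 on the CD80lo arrays. Their summed signal was 12670.2 and 11927 on the CD80hi arrays and 10669.6 and 9413 on the CD80lo arrays. The Aire probe set also gave 1589 and 1385 on the knockout-labelled CD80hi arrays, so it does not check that label.

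Of 6922 genes tested, 597 were called higher in CD80hi cells (8.62%) and 335 lower (4.84%). Over probe sets, 744 were called higher and 442 lower, which became 428 to 477 and 177 to 204 when each of the 4 arrays was left out in turn. The median change of all genes was -0.03, with quartiles at -0.44 and 0.46. Both CD80hi arrays lay above both CD80lo arrays for 31.2% of genes and below both for 32.8%, so a lack of overlap between 2 and 2 arrays is common and is not read as a result. In knockout-labelled cells, whose arrays are separate, 490 of the 597 genes that rose in wild type changed in the same direction (82.1%), and 268 were called higher. All 335 genes that fell in wild type had a negative change there as well, and 238 were called lower. The arrays are separate, but both contrasts used the same estimate of spread for each probe set. Calls in both genotypes are therefore not independent of each other. In those cells 6.44% of all genes were called higher and 7.27% lower. Among genes not called in wild type, 70.3% had the same sign in both genotypes.

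**Figure D1:**
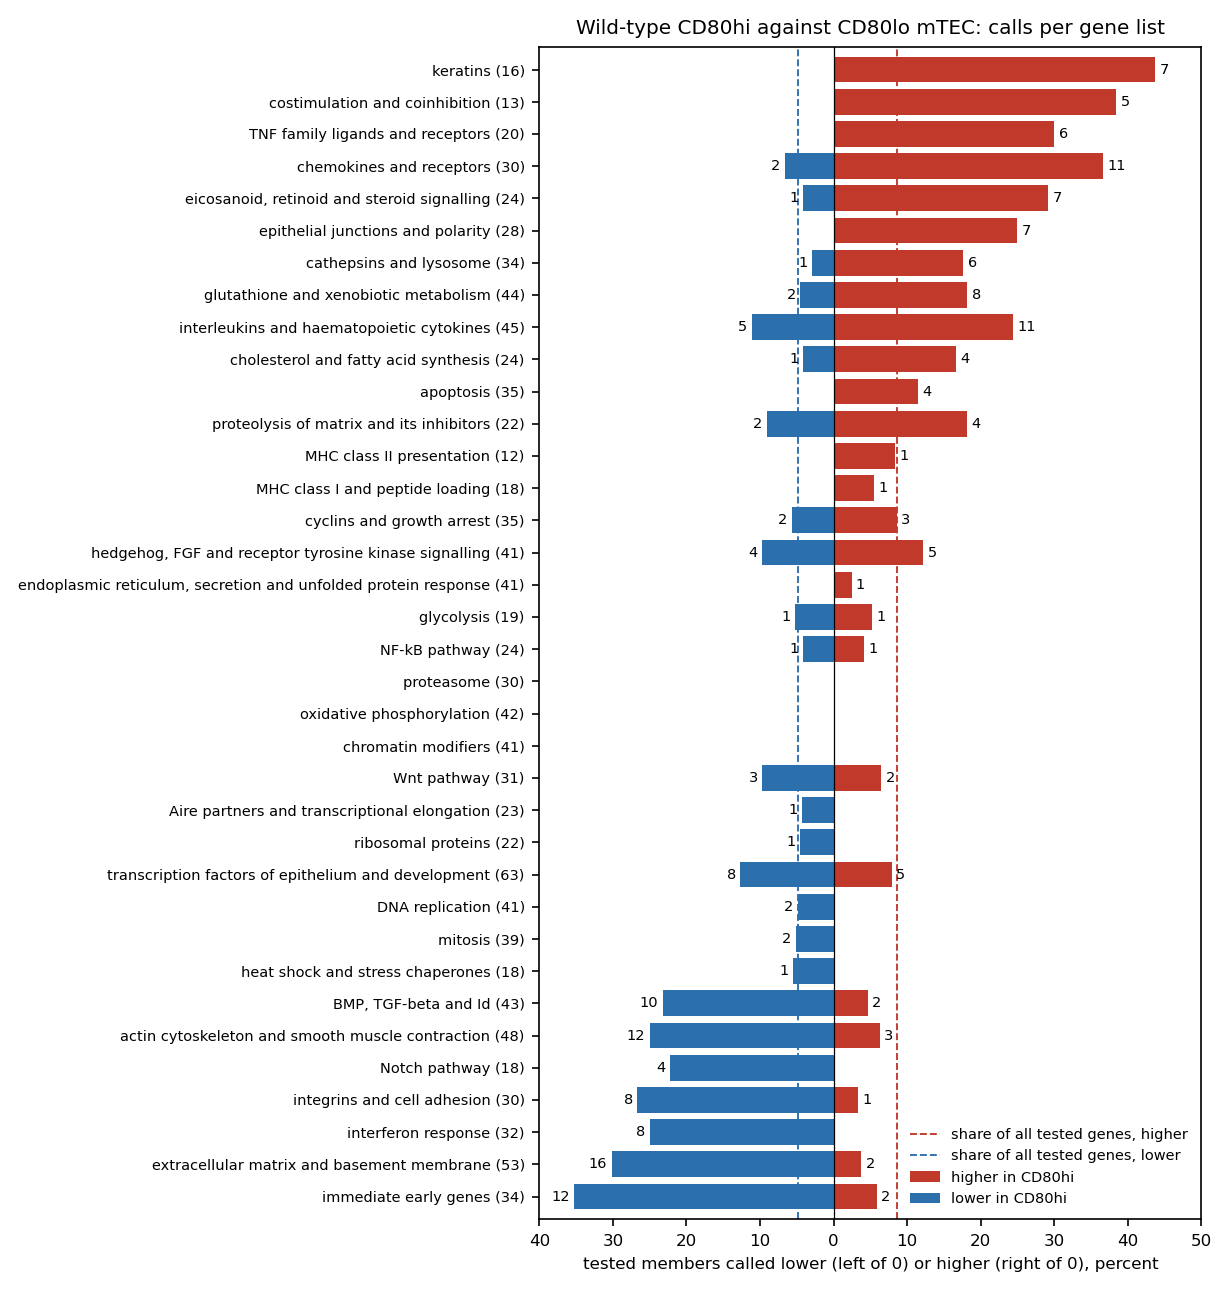
Share of the tested members of 36 gene lists that were called higher (red, right of 0) or lower (blue, left of 0) in wild-type CD80hi cells than in CD80lo cells, in percent, with the number of genes at each bar and the number tested in parentheses. Dashed lines mark the shares among all 6922 genes (8.62% higher, 4.84% lower). Keratins, costimulatory molecules and chemokines extend farthest to the right, and immediate early, extracellular matrix, integrin, actin and interferon genes to the left. The costimulation count includes Cd80, on whose product the cells were sorted.

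The sequences before the start sites of a few of these genes are shown here because each gene was called and carries a well-known element of its system in the window. They are the 250 bases before the RefSeq start, 5′ to 3′ on the gene's strand, from build GRCm38.p6, with the matches to the named element in capitals. Ifit3 (chr19:34583279-34583528, plus strand), Irgm1 (chr11:48871421-48871670, minus strand) and Gbp2 (chr3:142620413-142620662, plus strand) are interferon-inducible genes that fell in CD80hi cells, and the capitals mark the interferon-stimulated response element, searched on both strands as GAAA, any 2 bases and GAAA.
Ifit3: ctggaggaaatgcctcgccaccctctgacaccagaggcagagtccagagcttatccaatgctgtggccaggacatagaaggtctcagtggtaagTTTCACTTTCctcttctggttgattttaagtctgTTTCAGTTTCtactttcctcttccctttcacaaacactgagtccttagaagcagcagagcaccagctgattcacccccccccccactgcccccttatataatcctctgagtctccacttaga
Irgm1: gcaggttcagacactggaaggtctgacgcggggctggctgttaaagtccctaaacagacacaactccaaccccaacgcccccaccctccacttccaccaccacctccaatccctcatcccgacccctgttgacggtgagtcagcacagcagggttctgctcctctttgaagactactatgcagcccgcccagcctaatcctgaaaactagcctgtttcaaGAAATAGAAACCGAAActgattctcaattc
Gbp2: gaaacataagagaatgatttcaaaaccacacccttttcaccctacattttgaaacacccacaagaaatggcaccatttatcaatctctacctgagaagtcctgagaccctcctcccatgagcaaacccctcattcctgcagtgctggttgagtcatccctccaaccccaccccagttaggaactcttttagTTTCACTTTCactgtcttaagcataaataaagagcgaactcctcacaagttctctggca
Socs3 (chr11:117969367-117969616, minus strand), the feedback inhibitor of IL-6-type cytokine receptors, fell as well, and the capitals mark a STAT element, searched as TTCNNNGAA on both strands.
Socs3: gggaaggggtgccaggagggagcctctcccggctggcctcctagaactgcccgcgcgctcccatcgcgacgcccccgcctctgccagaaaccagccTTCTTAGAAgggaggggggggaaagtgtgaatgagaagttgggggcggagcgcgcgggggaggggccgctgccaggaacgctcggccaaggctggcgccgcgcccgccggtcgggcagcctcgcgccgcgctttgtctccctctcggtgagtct
Myl9 (chr2:156775214-156775463, plus strand) encodes a contractile light chain that fell, and the capitals mark a CArG box, the element bound by serum response factor. Cxcl2 (chr5:90903649-90903898, plus strand) encodes a chemokine that rose, and the capitals mark the kappaB element, the site bound by NF-kB.
Myl9: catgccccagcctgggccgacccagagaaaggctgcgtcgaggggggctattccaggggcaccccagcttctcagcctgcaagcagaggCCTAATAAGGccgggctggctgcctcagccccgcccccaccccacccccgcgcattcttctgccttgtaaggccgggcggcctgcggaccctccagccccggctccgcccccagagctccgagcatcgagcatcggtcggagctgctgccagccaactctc
Cxcl2: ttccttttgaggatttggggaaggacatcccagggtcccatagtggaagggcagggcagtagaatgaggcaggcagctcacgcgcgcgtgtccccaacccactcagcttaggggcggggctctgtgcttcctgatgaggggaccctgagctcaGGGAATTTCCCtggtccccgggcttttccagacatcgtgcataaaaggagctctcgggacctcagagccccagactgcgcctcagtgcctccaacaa

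Windows were present for 6 of the 8 interferon-response genes that fell, and 4 of these held the response element (Gbp2, Gbp3, Ifit3 and Irgm1), while 3.46% of all 27025 genes with a window hold it. The STAT element was found for 1 of the 4 falling cytokine-list genes with a window and for 8.13% of all genes. A CArG box stood before 2 of 11 actin and contractile genes that fell (Myl9 and Cnn2) and before 1.62% of all genes. The kappaB element was found for 5 of the 12 genes with a window among costimulatory, TNF family and chemokine genes that rose, namely Ccl1, Ccl9, Ccr6, Cxcl2 and Tnfrsf9, and for 8.23% of all genes. No printed match overlapped a match to another of these elements. A match describes the letters in the window and not a bound site. The lists were drawn up by known function, and uncalled members of the same lists were not counted. The shares therefore do not set the called genes apart from the rest of their lists.

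Receptors of the IL-6 cytokine family fell in CD80hi cells. These receptors pair a shared chain, gp130, with a partner for each ligand and signal through JAK kinases and STAT3. Il6st, which encodes gp130, gave 41.9 and 53.2 in CD80hi cells, against 542 and 480.3 in CD80lo cells, a change of -3.31 ± 0.48 (adjusted p = 0.000391). Lifr, the partner for leukaemia inhibitory factor, gave 36.1 and 55.2 in CD80hi cells, against 712 and 852 in CD80lo cells, a change of -3.98 ± 0.54 (adjusted p = 0.000236), and all 4 of its probe sets were called lower. Osmr, the oncostatin M receptor, gave 96.5 and 82.2 in CD80hi cells, against 726 and 750 in CD80lo cells, a change of -2.98 ± 0.39 (adjusted p = 0.000175). In each of these receptor chains the CD80lo arrays lay several-fold above the CD80hi arrays with little spread between samples. The second Il6st probe set changed by -0.41 and was not called.

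Downstream genes of the same system fell too. Socs3 gave 400.1 and 306 in CD80hi cells, against 2988 and 2989 in CD80lo cells, a change of -3.08 ± 0.34 (adjusted p = 4.52e-05), and both of its probe sets were called, though this one shares probes with similar sequences. Cebpd, a transcription factor gene induced by STAT3, changed by -2.03 ± 0.42 (adjusted p = 0.0045). The signal transducers themselves were not called, with changes of -0.04 for Stat3 and -0.59 for Jak1, nor was Il6ra, the IL-6 binding chain, at -1.09. In knockout-labelled cells Il6st changed by -3.47, Lifr by -2.95, Osmr by -3.58 and Socs3 by -2.67, all called lower. Only the Cebpd call was lost when 1 wild-type array, CD80lo sample 2, was left out, with an adjusted p of 0.051.

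**Figure D2:**
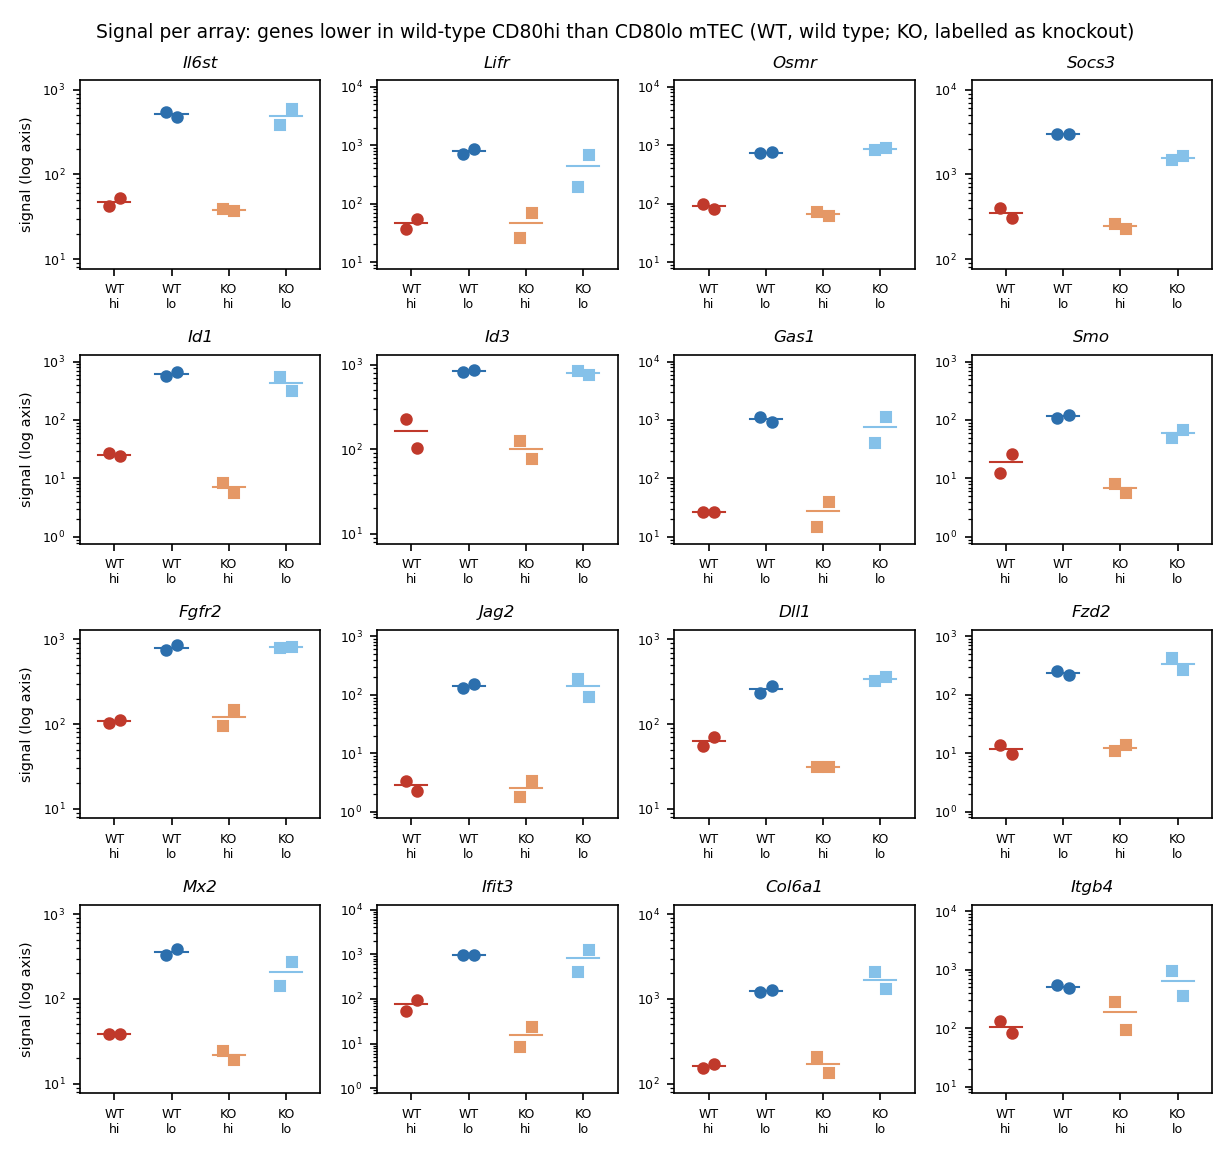
Signal of 16 genes that were below their CD80lo level in wild-type CD80hi cells, on a log axis. Each point is 1 array, short lines are means of 2 arrays, circles are wild type and squares are labelled as knockout. For Il6st, Lifr, Osmr, Id1, Gas1, Fgfr2, Jag2 and Fzd2 both CD80hi arrays of each genotype lie below both of its CD80lo arrays.

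Genes of the bone morphogenetic protein (BMP) and TGF-beta systems fell in larger number than they rose, with 10 of 43 tested members lower, 2 higher and a median change of -0.63. BMPs act through Smad proteins and induce the Id genes, which encode inhibitors of differentiation factors of the helix-loop-helix type. Id1 gave 27.3 and 23.9 in CD80hi cells, against 555 and 649.8 in CD80lo cells, a change of -4.32 ± 0.38 (adjusted p = 1.13e-05). Id3 gave 229 and 104 in CD80hi cells, against 814 and 864 in CD80lo cells, a change of -2.41 ± 0.48 (adjusted p = 0.00355). Both CD80hi samples were far below both CD80lo samples for Id1. The CD80hi samples differed more from each other for Id3.

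Antagonists and feedback inhibitors were among the falling genes. Fst, which encodes the activin-binding protein follistatin, changed by -2.92 ± 0.41 (adjusted p = 0.000282), Smad6, an inhibitory Smad, by -1.35 ± 0.31 (adjusted p = 0.0092), and Ski, a repressor of Smad-dependent transcription, by -1.74 ± 0.33 (adjusted p = 0.00275). Of the ligand and target genes, Tgfb3 changed by -1.45 ± 0.35 (adjusted p = 0.0126) and Tgfbi, a matrix protein induced by TGF-beta, by -3.07 ± 0.34 (adjusted p = 4.52e-05). The receptor gene Bmpr1a, picked here after its value was seen, gave 21.8 and 27.3 on the CD80hi arrays and 72.5 and 96.6 on the CD80lo arrays and changed by -1.60 ± 0.40 (adjusted p = 0.0148). The TGF-beta family ligand gene Gdf3 ran the other way, with 94.6 and 92.3 in CD80hi cells, against 3.6 and 5.9 in CD80lo cells and a change of 3.37 ± 0.53 (adjusted p = 0.000683). Bmp7, a ligand, and Bmpr2, the type II receptor, were not called, at -0.90 and -0.51. Calls of Id3, Tgfb3, Smad6 and Bmpr1a were lost without 1 or more of the 4 arrays, with adjusted p-values of up to 0.17.

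Ligands and receptors of the Notch system fell, with 4 of 18 tested members lower and none higher (3 at unadjusted p-values below 0.05). Notch signalling between neighbouring cells takes place when a Delta or Jagged ligand on one cell meets a Notch receptor on the next. Jag2 was near the floor of the array in CD80hi cells, at 3.4 and 2.3 in CD80hi cells, against 131 and 154 in CD80lo cells, and changed by -4.27 ± 0.57 (adjusted p = 0.000181). Dll1, a second ligand gene, gave 55.8 and 70.8 in CD80hi cells, against 233 and 285 in CD80lo cells, a change of -1.95 ± 0.39 (adjusted p = 0.0035). Hey1, a transcriptional target of the pathway, changed by -1.95 ± 0.38 (adjusted p = 0.00297) and Notch3 by -1.40 ± 0.33 (adjusted p = 0.0121). Notch1 was not called, at -0.54. In knockout-labelled cells 6 of the 18 genes were called lower, Jag2 (-4.24) and Dll1 (-3.26) among them. The Hey1 call was lost without CD80lo sample 2 (adjusted p = 0.062), and that of Notch3 without any 1 of 3 arrays (up to 0.12).

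Of 41 tested genes of hedgehog, FGF and receptor tyrosine kinase signalling 5 rose and 4 fell, against 8.62% and 4.84% of all genes. Among the hedgehog genes, Gas1 and Smo fell, Dhh rose and Ptch1 was not called. Gas1, a co-receptor that binds hedgehog ligands at the cell surface, gave 26.8 and 26.7 in CD80hi cells, against 1136 and 908 in CD80lo cells, a change of -5.02 ± 0.55 (adjusted p = 4.4e-05). Smo, the membrane protein that transmits the signal, gave 12.3 and 26.5 in CD80hi cells, against 108 and 123 in CD80lo cells, a change of -2.38 ± 0.51 (adjusted p = 0.00631). Dhh, the desert hedgehog ligand, gave 497 and 436 in CD80hi cells, against 58.6 and 58.9 in CD80lo cells, a change of 2.89 ± 0.28 (adjusted p = 2.15e-05) from a probe set that shares probes with similar sequences. Ptch1, the ligand's receptor and a target of the pathway, was at -0.25. In knockout-labelled cells Gas1 changed by -4.53, Smo by -2.46 and Dhh by 3.16, all called. The Smo call was lost without CD80hi sample 1 or CD80lo sample 2, with adjusted p-values of up to 0.094.

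Fgfr2, the receptor through which fibroblast growth factors of the mesenchyme drive growth of the thymic epithelium, gave 104 and 112 in CD80hi cells, against 745 and 849 in CD80lo cells, a change of -2.83 ± 0.35 (adjusted p = 0.000106). Its 2 other probe sets gave smaller falls and were not called, the smallest at -1.24. The Wnt receptor gene Fzd2 gave 13.9 and 9.8 in CD80hi cells, against 256 and 219 in CD80lo cells, a change of -3.87 ± 0.35 (adjusted p = 1.31e-05). Dkk1, a secreted Wnt antagonist, was near the floor in CD80lo cells and rose by 2.48 ± 0.42 (adjusted p = 0.00107). In the Wnt list 2 of 31 tested members rose and 3 fell, against 8.62% and 4.84% of all genes, with a median of -0.11. Ctnnb1, which encodes beta-catenin, was not called, at 0.34.

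Genes of the extracellular matrix and of its receptors fell more often than they rose in CD80hi cells. Of 53 tested genes of extracellular matrix and basement membrane 16 fell and 2 rose, against 4.84% and 8.62% of all genes, and the median change was -0.90. Col6a1 gave 153 and 169 in CD80hi cells, against 1215 and 1269 in CD80lo cells, a change of -2.91 ± 0.36 (adjusted p = 0.000116). Its partner chain Col6a2 gave 35.3 and 25.6 in CD80hi cells, against 317 and 256 in CD80lo cells, a change of -3.05 ± 0.38 (adjusted p = 0.000114). The collagen VI chains thus fell to a like extent in both samples.

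Genes for collagen maturation and assembly fell as well. Lox, the enzyme that cross-links collagen, gave 1.4 and 1.2 in CD80hi cells, against 73.7 and 84.1 in CD80lo cells, so it was near the floor in CD80hi cells, a change of -3.78 ± 0.74 (adjusted p = 0.00338). Serpinh1, the collagen chaperone, changed by -3.34 ± 0.72 (adjusted p = 0.00651) and Fmod, a collagen-binding proteoglycan, by -3.37 ± 0.42 (adjusted p = 0.000115). Chains of laminin, the main adhesive protein of basement membranes, were lower for Lamc1 at -1.50 ± 0.37 (adjusted p = 0.0142) and, named after their values were seen, for Lamb3 at -2.46 ± 0.71 (adjusted p = 0.0333) and Lama3 at -1.99 ± 0.61 (adjusted p = 0.0479). Col17a1, a transmembrane collagen of hemidesmosomes, went the other way, with 215 and 191 in CD80hi cells, against 45 and 33.6 in CD80lo cells and a change of 2.24 ± 0.44 (adjusted p = 0.00302). Calls of the 3 laminin chains were lost without any 1 of the 4 arrays, with adjusted p-values of up to 0.28, and that of Serpinh1 without CD80hi sample 2 or CD80lo sample 1, at up to 0.081.

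Receptors and linkers for this matrix followed, with 8 of 30 integrin and adhesion genes lower and 1 higher. Dag1, which encodes the laminin receptor dystroglycan, gave 135 and 133 on the CD80hi arrays and 462 and 338 on the CD80lo arrays and changed by -1.53 ± 0.35 (adjusted p = 0.00925). Cd151, a tetraspanin that partners laminin-binding integrins, changed by -1.47 ± 0.33 (adjusted p = 0.00882), and 2 of its 3 probe sets were called lower while the third changed by 0.44. Itgb4, the integrin chain of hemidesmosomes, gave 131 and 81.8 on the CD80hi arrays and 538 and 487 on the CD80lo arrays and changed by -2.25 ± 0.67 (adjusted p = 0.0399). Vcl, which encodes vinculin and links integrins to actin, changed by -1.48 ± 0.31 (adjusted p = 0.00543). Itgb1, the most widely shared integrin chain, was not called, at -0.37. Calls of Vcl, Cd151, Dag1 and Itgb4 were lost without 2 or more of the 4 arrays in turn, with adjusted p-values of up to 0.24.

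Actin filaments and their motors showed the same direction, with 12 of 48 tested genes lower, 3 higher and a median of -0.40. Tagln, an actin-binding protein of contractile cells, gave 43.7 and 46.5 in CD80hi cells, against 1085 and 877 in CD80lo cells, a change of -4.30 ± 0.42 (adjusted p = 2.15e-05). Acta2, smooth muscle actin, gave 122 and 145 in CD80hi cells, against 1084 and 966 in CD80lo cells, a change of -2.90 ± 0.40 (adjusted p = 0.00026). Myl9 gave 14.3 and 14.5 in CD80hi cells, against 90.3 and 65.7 in CD80lo cells, a change of -2.09 ± 0.38 (adjusted p = 0.00183). These 3 genes are also markers of smooth muscle and pericytes. Changes were smaller for genes that most cells use, at -1.31 ± 0.26 (adjusted p = 0.00373) for the tropomyosin gene Tpm4 and -1.88 ± 0.31 (adjusted p = 0.001) for Anxa2, a membrane-linked annexin. Vil1, the actin-bundling protein of microvilli, rose, with 208 and 222 in CD80hi cells, against 18.1 and 26 in CD80lo cells and a change of 3.05 ± 0.36 (adjusted p = 8.32e-05). Myh9, the main nonmuscle myosin heavy chain, was not called, at -0.53.

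Genes that respond within minutes to growth factors or stretch were lower in CD80hi cells, 12 of 34 against 2 higher, with a median of -0.86. Jun, a subunit of the AP-1 transcription factor, gave 348 and 314 in CD80hi cells, against 1734 and 1839.7 in CD80lo cells, a change of -2.42 ± 0.32 (adjusted p = 0.000196). Egr1 gave 1048 and 1073 in CD80hi cells, against 3646 and 3487 in CD80lo cells, a change of -1.75 ± 0.39 (adjusted p = 0.00781). Ccn1 and Ccn2, secreted matrix-associated proteins and known targets of the mechanosensitive regulator YAP, changed by -3.35 ± 0.53 (adjusted p = 0.000719) and by -3.83 ± 0.62 (adjusted p = 0.000835). Ccn2 was at 10.2 and 22.6 in CD80hi cells, against 207 and 389 in CD80lo cells. Frmd6, a component of the Hippo pathway that restrains YAP, was among the 20 largest falls at -4.19 ± 0.39. Fos was not called, at -0.60. The Egr1 call was lost without any 1 of the 4 arrays (adjusted p of up to 0.061).

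Markers of stromal and blood cells moved with these groups. The 11 tested markers of pericytes and smooth muscle summed to 881 and 785 on the CD80hi arrays and 3101 and 2596 on the CD80lo arrays, with 5 lower and 2 higher. For 15 fibroblast markers the sums were 1179 and 1160.2 in CD80hi cells and 3235 and 3121 in CD80lo cells, with 5 lower and 1 higher. Col1a2 gave 158 and 117 on the CD80hi arrays and 131 and 129.8 on the CD80lo arrays and was not called. Pdgfra gave 22.3 and 29.6 on the CD80hi arrays and 39.8 and 25.5 on the CD80lo arrays, also not called. The other probe set of each was called lower, at -1.94 for Col1a2 and -1.52 for Pdgfra. Twist1 was dim on all 4 arrays. For 13 endothelial markers the sums were 282 and 285 in CD80hi cells and 1222 and 736 in CD80lo cells, with 4 lower and none higher (0 at unadjusted p-values below 0.05). Selp gave 4.3 and 2.9 in CD80hi cells, against 146 and 112 in CD80lo cells, whereas Pecam1 gave 46.3 and 50 on the CD80hi arrays and 52.6 and 38.6 on the CD80lo arrays and was not called, and Kdr was dim on all 4 arrays. Their part in the falls described in CD80hi cells was not tested, neither for matrix, adhesion and actin genes nor for the signalling, immediate early, transcription factor and interferon genes.

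Immunoglobulin RNA was high on the CD80lo arrays. Igha, an immunoglobulin heavy chain gene, gave 217 and 499.8 in CD80hi cells, against 5641 and 6681 in CD80lo cells, and 27 immunoglobulin genes with the J chain gene, a list added after seeing values, summed to 1198 and 1890.3 on the CD80hi arrays and 14266 and 18530.2 on the CD80lo arrays. Of the 13 tested B cell markers, Cd79a, a chain of the B cell receptor complex, gave 9.6 and 10.6 on the CD80hi arrays and 10.9 and 24.3 on the CD80lo arrays, and Cd22 and Cr2 were dim on all 4 arrays. Blk, a B cell kinase gene, rose, with 213 and 193 in CD80hi cells, against 14.9 and 31.3 in CD80lo cells, and Jchain, the J chain gene of secreted immunoglobulin, fell, with 45.8 and 81.6 in CD80hi cells, against 403 and 545 in CD80lo cells. The Jchain call was lost without CD80hi sample 1 or CD80lo sample 2 (adjusted p of up to 0.0705). The B cell sums, which include immunoglobulin genes and Jchain, were 972 and 1012 on the CD80hi arrays and 2413 and 3306 on the CD80lo arrays. Of 8 cortical epithelial markers Ctsl and Cxcl12 fell and none rose (0 at unadjusted p-values below 0.05), with sums of 5388 and 5176 on the CD80hi arrays, 6689.5 and 7837 on the CD80lo arrays and 10409 and 15327 in cTEC, and their part in the Ctsl and Cxcl12 results was not tested. Thymocyte markers did not separate the fractions, with none of 17 called in limma (1 higher and 0 lower at unadjusted p-values below 0.05) and sums of 594 and 927 in CD80hi cells and 492 and 1466 in CD80lo cells. Among the knockout-labelled arrays, CD80lo sample 1 stood apart, with an immunoglobulin sum of 23842 against 3945 in CD80lo sample 2.

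**Figure D3:**
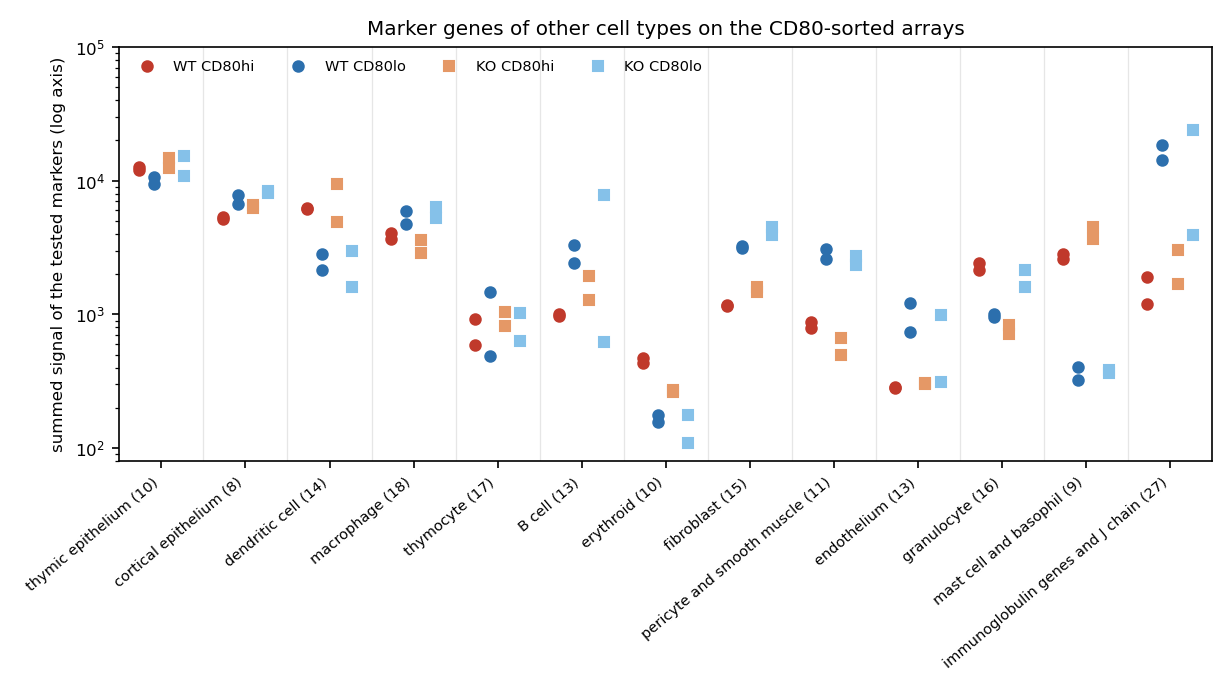
Summed signal of the tested marker genes of 13 cell types or gene groups on each CD80-sorted array, on a log axis, with the number of genes in parentheses. Circles are wild type and squares are labelled as knockout, CD80hi left of CD80lo. Fibroblast, pericyte, endothelial, B cell, immunoglobulin, macrophage and cortical epithelial sums are lower on both wild-type CD80hi arrays than on both CD80lo arrays, and thymic epithelial, dendritic cell, erythroid, granulocyte and mast cell sums are higher.

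The interferon response was lower in CD80hi cells, with 8 of 32 tested genes called lower, none higher (1 at unadjusted p-values below 0.05) and a median of -0.73. Type I and II interferons induce antiviral GTPases and transcription factors of their own pathway. Ifit3, a translation-regulating antiviral protein, gave 54.6 and 97.3 in CD80hi cells, against 962 and 978 in CD80lo cells, a change of -3.65 ± 0.51 (adjusted p = 0.000262). Mx2, an antiviral GTPase, gave 38.3 and 38.8 in CD80hi cells, against 328 and 389 in CD80lo cells, a change of -3.06 ± 0.39 (adjusted p = 0.000136). Irgm1, a GTPase of the defence against intracellular microbes, gave 48.4 and 46.5 in CD80hi cells, against 350.2 and 378 in CD80lo cells, a change of -2.82 ± 0.55 (adjusted p = 0.00332). For these genes the fractions were far apart, and the samples of a fraction lay close together except for Ifit3 in CD80hi cells.

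The guanylate-binding protein genes fell too, Gbp2 with a change of -2.21 ± 0.29 (adjusted p = 0.000156) and Gbp3 with one of -2.72 ± 0.66 (adjusted p = 0.0132), as did the immunity-related GTPase gene Iigp1, at -2.24 ± 0.39 (adjusted p = 0.00139) from a probe set with shared probes. Of the transcription factors, Irf9 changed by -1.79 ± 0.32 (adjusted p = 0.00157) and Irf7 by -1.28 ± 0.33 (adjusted p = 0.0184). Not all interferon genes moved: Irf1 changed by -0.56, Isg15 by -1.12 and the receptor gene Ifnar1 by -0.27, none called. In knockout-labelled cells 10 of the 32 genes were called lower, with Ifit3 at -5.22 and Gbp2 at -3.17. Calls of Irf7 and Gbp3 were lost without 3 or more of the arrays in turn, at adjusted p-values of up to 0.15.

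Genes of DNA replication and mitosis were called lower about as often as all genes, of which 4.84% were. Of 41 replication genes 2 fell and none rose (13 lower and 0 higher at unadjusted p-values below 0.05), at a median of -0.65. Tk1, thymidine kinase, gave 41.5 and 54.3 in CD80hi cells, against 205 and 169 in CD80lo cells, a change of -1.87 ± 0.35 (adjusted p = 0.00262), but its other probe set changed by 1.03. Mcm3, a subunit of the replicative helicase, changed by -1.18 ± 0.34 (adjusted p = 0.0355). The helicase genes Mcm5 and Mcm7 were not called, at -1.41 and -1.41, and the other Mcm5 probe set changed by 1.13. Of 39 mitosis genes, Stmn1 and Kif20a fell, each with its call lost without 3 or more of the 4 arrays in turn (adjusted p of up to 0.27), as the Mcm3 call was without any 1 (up to 0.29), and the proliferation marker Mki67 was not called, at 46.6 and 114 on the CD80hi arrays and 194 and 179.9 on the CD80lo arrays and a change of -1.29. The other Mki67 probe set changed by 0.31 and was not called. The median of the replication list in knockout-labelled cells was -0.30, with none called in limma (1 at unadjusted p-values below 0.05).

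In the cyclin and growth arrest list 3 of 35 genes rose and 2 fell, near the shares of all genes (8.62% and 4.84%), with a median of 0.13. Cdkn1c, which encodes the cell cycle inhibitor p57, gave 821 and 850.1 in CD80hi cells, against 119 and 137 in CD80lo cells, a change of 2.67 ± 0.30 (adjusted p = 5.21e-05). Cdkn2b, the inhibitor p15, changed by 1.86 ± 0.37 (adjusted p = 0.00375), and Mxd1, a repressor that competes with the Myc oncoprotein, by 2.62 ± 0.42 (adjusted p = 0.000751). Ccnd1 and Cdk4 were not called, at -1.10 and -1.04. The Cdkn2b call was lost without CD80hi sample 1 (adjusted p = 0.0653). For Cdkn1c the direction differed by genotype: it gave 313 and 251 on the knockout-labelled CD80hi arrays and 677 and 638 on the knockout-labelled CD80lo arrays, a change of -1.22 ± 0.30 (adjusted p = 0.0148).

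Of 63 tested transcription factor genes 8 fell and 5 rose, where 4.84% of all genes fell and 8.62% rose. Snai2, a repressor linked to the loss of epithelial features, gave 75.9 and 109.7 in CD80hi cells, against 633 and 884 in CD80lo cells, a change of -2.97 ± 0.42 (adjusted p = 0.000327). Pax1, needed for development of the thymic epithelium, gave 90 and 90.9 in CD80hi cells, against 376 and 278 in CD80lo cells, a change of -1.79 ± 0.46 (adjusted p = 0.0192), and Tcf4, a helix-loop-helix factor, changed by -2.48 ± 0.47 (adjusted p = 0.00248). Rising factors included Irf4, with 1156 and 1227 in CD80hi cells, against 276 and 156 in CD80lo cells and a change of 2.49 ± 0.41 (adjusted p = 0.00101). Vdr, the vitamin D receptor, changed by 2.07 ± 0.36 (adjusted p = 0.00149) and Cdx1, a factor of the intestinal epithelium, by 2.43 ± 0.50 (adjusted p = 0.00436). Foxn1, the master regulator of thymic epithelium, was not called, at 0.08. The Pax1 call was lost without any 1 of the 4 arrays (adjusted p of up to 0.15) and that of Cdx1 without CD80hi sample 1 or CD80lo sample 2 (up to 0.072).

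Genes for costimulation of T cells rose in CD80hi cells. Of 13 tested genes of costimulation and coinhibition 5 rose, against 8.62% of all genes, none fell (0 at unadjusted p-values below 0.05) and the median was 0.65. Cd80 was among the 5, and because the cells were sorted on CD80, its rise is no separate result. Cd40, the receptor through which T cells signal back to antigen-presenting cells, gave 653 and 772 in CD80hi cells, against 226 and 165 in CD80lo cells, a change of 1.85 ± 0.31 (adjusted p = 0.000985). Cd70, the ligand of CD27, gave 308 and 191 in CD80hi cells, against 59.7 and 22.5 in CD80lo cells, a change of 2.56 ± 0.42 (adjusted p = 0.000926). Tnfsf9, the ligand of 4-1BB, gave 199 and 242 in CD80hi cells, against 50.9 and 40.5 in CD80lo cells, a change of 2.16 ± 0.42 (adjusted p = 0.00305). All 3 were higher on both CD80hi arrays than on either CD80lo array. Cd86, the second ligand of CD28, changed by 2.34 ± 0.48 (adjusted p = 0.00439) from a probe set with shared probes, and its other probe set by 0.56, not called, and the Cd86 call was lost without CD80lo sample 2 (adjusted p = 0.057). In knockout-labelled cells 7 of the 13 genes rose, with changes of 2.59 for Cd40, 2.75 for Cd70 and 3.58 for Cd86. The adhesion ligand gene Icam1 was not called, at 0.53.

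**Figure D4:**
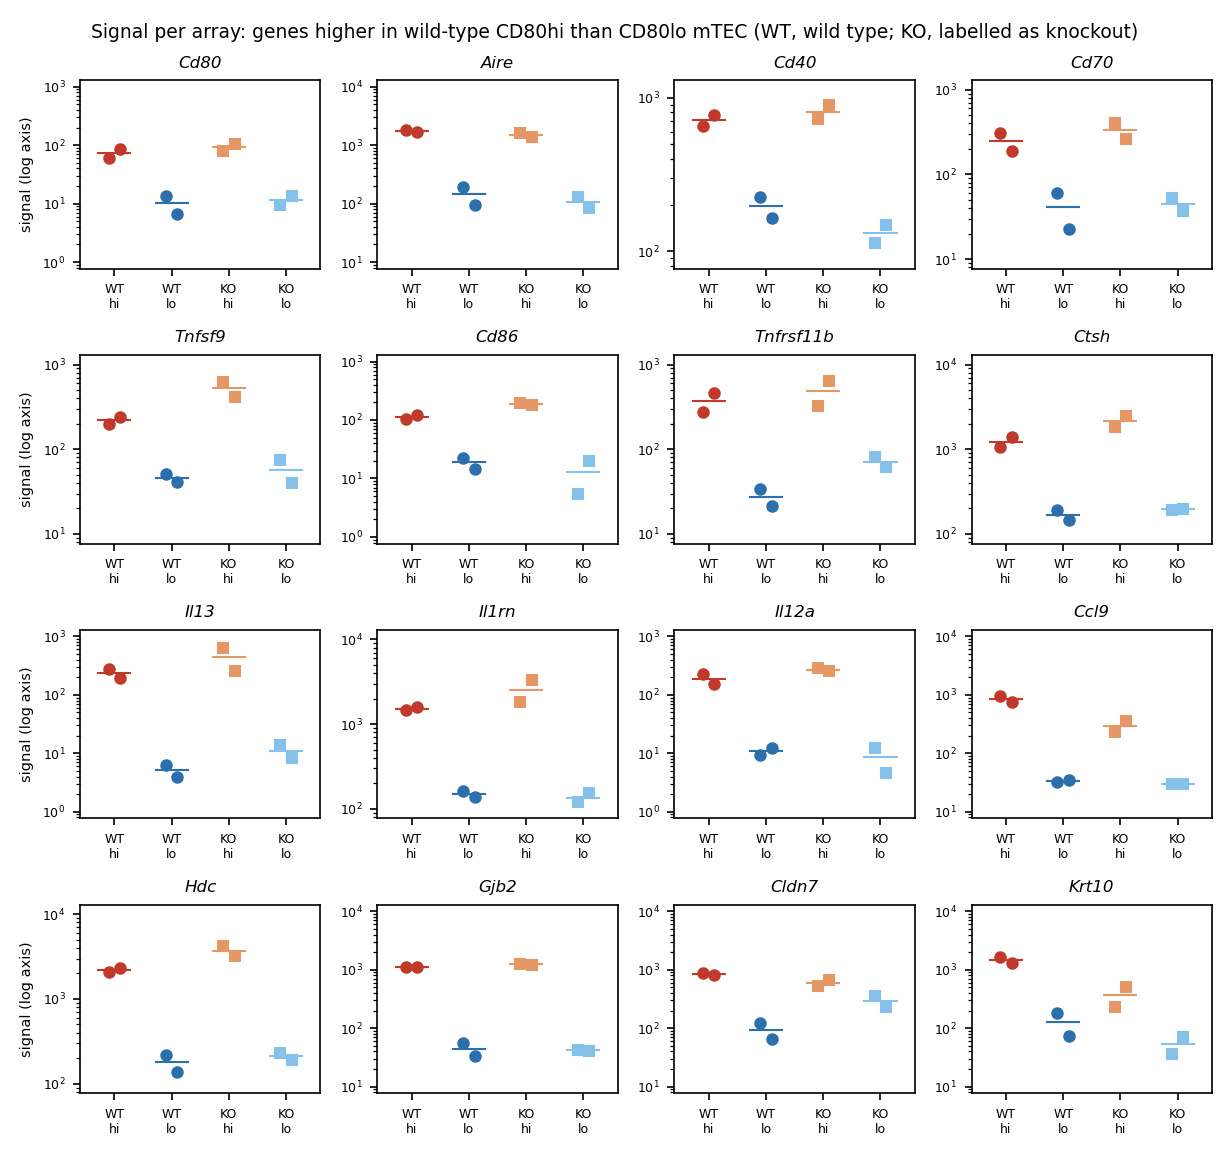
Signal of 16 genes that were above their CD80lo level in wild-type CD80hi cells, on a log axis. Each point is 1 array, short lines are means of 2 arrays, circles are wild type and squares are labelled as knockout. Both wild-type CD80hi arrays lie above both wild-type CD80lo arrays in every panel, and Aire gives 1589 and 1385 on the knockout-labelled CD80hi arrays.

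Within the wider TNF family, 6 of 20 tested genes rose, against 8.62% of all genes, and none fell (1 at unadjusted p-values below 0.05). Cd40, Cd70 and Tnfsf9 belong to this family too, so this count and that of costimulation overlap. Over these 2 lists and the chemokine list together, 19 different genes rose. Tnf itself gave 375 and 242 in CD80hi cells, against 6.2 and 4.9 in CD80lo cells, a change of 4.89 ± 0.41 (adjusted p = 7.2e-06). Tnfrsf11b, which encodes osteoprotegerin, the soluble decoy for RANKL, gave 274 and 462 in CD80hi cells, against 33.7 and 21.4 in CD80lo cells, a change of 3.50 ± 0.46 (adjusted p = 0.000158). RANK, the receptor through which RANKL drives mTEC maturation, is encoded by Tnfrsf11a and was not called, at 0.30, and neither was the lymphotoxin receptor gene Ltbr, at -0.36. Tnfrsf9, the receptor 4-1BB, rose by 1.98 ± 0.47 (adjusted p = 0.0121). Few genes of the NF-kB pathway below these receptors were called, with 1 of 24 higher, 1 lower and Relb and Nfkb2 at 0.44 and 0.69. The Tnfrsf9 call was lost without any 1 of the 4 arrays, with an adjusted p of up to 0.097.

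Lysosomal proteases of antigen processing changed in CD80hi cells. Of 34 cathepsin and lysosome genes 6 rose and 1 fell, against 8.62% and 4.84% of all genes. Ctsh, an aminopeptidase, gave 1061 and 1385 in CD80hi cells, against 190.3 and 145 in CD80lo cells, a change of 2.83 ± 0.43 (adjusted p = 0.000557). Ctss, the protease that trims the invariant chain of MHC class II, gave 2079.8 and 2605 in CD80hi cells, against 838 and 651 in CD80lo cells, a change of 1.65 ± 0.40 (adjusted p = 0.0134). Ctsl, the protease that serves this purpose in cortical epithelium, went the other way, with 555 and 733 in CD80hi cells, against 3006 and 4049 in CD80lo cells and a change of -2.44 ± 0.49 (adjusted p = 0.00382). Both changes were also called in knockout-labelled cells, at -2.67 for Ctsl and 2.52 for Ctss. Ctse and Ctsz changed by 2.21 ± 0.47 (adjusted p = 0.00604) and by 2.24 ± 0.36 (adjusted p = 0.00084), and Npc2, a lysosomal cholesterol carrier, by 1.40 ± 0.29 (adjusted p = 0.00434). The Ctsl call was lost without CD80lo sample 2 at an adjusted p of 0.0502 and that of Ctss without 3 of the arrays, at up to 0.12. Calls of Ctse and Npc2 were lost without CD80hi sample 1 or CD80lo sample 2, at up to 0.072 and 0.057.

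MHC class II genes had a median of 0.63, but 1 of 12 was called. This was H2-Oa, a modulator of peptide loading, with 1529.8 and 1055 in CD80hi cells, against 289 and 236 in CD80lo cells and a change of 2.26 ± 0.56 (adjusted p = 0.0141). The chains of the presenting molecules were bright in both fractions, with H2-Aa at 7977 and 7866 in CD80hi cells, against 5611 and 5034 in CD80lo cells, a change of 0.58, not called. H2-Ab1 and the invariant chain gene Cd74 were not called, at 0.71 and 0.30. Among 18 genes of MHC class I and peptide loading the call was H2-Q10, a nonclassical class I gene best known from liver, at 3.70 ± 0.30, and Tap1 and Psmb8 were not called, at -0.47 and 0.85. The H2-Oa call was lost without 3 of the 4 arrays in turn (adjusted p of up to 0.13).

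Of 45 interleukin and cytokine genes 11 rose and 5 fell in CD80hi cells, against 8.62% and 4.84% of all genes. The falling ones were the gp130 system described above and Csf3. Il13, a cytokine of type 2 immunity, gave 282 and 195 in CD80hi cells, against 6.3 and 3.9 in CD80lo cells, a change of 4.61 ± 0.45 (adjusted p = 2.15e-05). Il1rn, the antagonist of the IL-1 receptor, gave 1461 and 1588 in CD80hi cells, against 163 and 138 in CD80lo cells, a change of 3.30 ± 0.40 (adjusted p = 8.82e-05). Il12a, a subunit of IL-12 and IL-35, gave 224 and 152 in CD80hi cells, against 9.5 and 12.5 in CD80lo cells, a change of 3.59 ± 0.46 (adjusted p = 0.000136). These 3 rose in knockout-labelled cells too, by 4.70, 4.13 and 4.42. Il5, another type 2 cytokine, gave 62.8 and 78.7 in CD80hi cells, against 5.3 and 3.6 in CD80lo cells and changed by 3.03 ± 0.48 (adjusted p = 0.000683), and in knockout-labelled cells it changed by 0.26 and was not called. Il4, named after its value was seen and read from a probe set with shared probes, changed by 2.37 ± 0.50 (adjusted p = 0.00568), with its other probe set at 0.88, not called. The Il4 call was lost without CD80hi sample 1 or CD80lo sample 2 (adjusted p of up to 0.072), and that of Csf3 without any 1 of the 4 arrays (up to 0.16).

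Chemokine and chemokine receptor genes were called in both directions, with 11 of 30 tested genes higher, 2 lower and a median of 1.23. Ccl9 gave 947 and 760.1 in CD80hi cells, against 32.4 and 35.4 in CD80lo cells, a change of 4.46 ± 0.33 (adjusted p = 3.36e-06). Cxcl2, which attracts neutrophils, gave 1019 and 1067 in CD80hi cells, against 99.4 and 134 in CD80lo cells, a change of 3.12 ± 0.53 (adjusted p = 0.00126). Cxcl13, which attracts B cells, gave 47.2 and 93.7 in CD80hi cells, against 7.3 and 10.1 in CD80lo cells, a change of 2.41 ± 0.39 (adjusted p = 0.000771). The 2 falling genes were Cxcl12, the ligand of CXCR4, with 14.5 and 16.6 in CD80hi cells, against 224 and 295 in CD80lo cells and a change of -3.69 ± 0.59 (adjusted p = 0.000739), and Ccl11, an attractant of eosinophils, with 19.8 and 7.7 in CD80hi cells, against 314 and 192 in CD80lo cells and a change of -3.84 ± 0.47 (adjusted p = 9.6e-05). Ccl11 and Cxcl12 were near the floor of the array in CD80hi cells.

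The medullary chemokines that attract CCR4-bearing thymocytes and dendritic cells also rose. Ccl22 gave 1651 and 1977 in CD80hi cells, against 485 and 278 in CD80lo cells, a change of 2.28 ± 0.70 (adjusted p = 0.0475), and Ccl17 gave 243 and 207 in CD80hi cells, against 88 and 52.6 in CD80lo cells, a change of 1.65 ± 0.51 (adjusted p = 0.0467). Ccl25, the ligand of CCR9, gave 1613 and 1638 on the CD80hi arrays and 462 and 737 on the CD80lo arrays, a change of 1.47, and was not called. Calls of Ccl17 and Ccl22 were lost without any 1 of the 4 arrays, with adjusted p-values of up to 0.32. Both genes also belong to the dendritic cell markers, of which 2 of 14 were called higher, against 8.62% of all genes. The marker sums were 6277 and 6173 in CD80hi cells, 2824 and 2138 in CD80lo cells and 11988 and 14227 in thymic dendritic cells. Itgax, a defining marker of dendritic cells, gave 46 and 61.8 in CD80hi cells, 53.8 and 33.7 in CD80lo cells and 1188 and 1296 in thymic dendritic cells.

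Genes of cell junctions and keratins rose. Of 28 junction and polarity genes 7 rose and none fell (2 at unadjusted p-values below 0.05), at a median of 0.20. Gjb2, the gap junction protein connexin 26, gave 1117 and 1110.4 in CD80hi cells, against 56.1 and 33 in CD80lo cells, a change of 4.54 ± 0.33 (adjusted p = 3.35e-06). Cldn7, a tight junction protein, gave 891 and 812 in CD80hi cells, against 123 and 65.8 in CD80lo cells, a change of 3.17 ± 0.45 (adjusted p = 0.000287) from a probe set with shared probes. Cldn4 changed by 2.46 ± 0.58 (adjusted p = 0.011), Cldn3 by 1.59 ± 0.40 (adjusted p = 0.0161) and Muc1, a membrane mucin, by 2.45 ± 0.53 (adjusted p = 0.00639). General epithelial genes were not called, with Cdh1 at 0.19 and the tight junction scaffold Tjp1 at 0.20. Gjb2 rose in knockout-labelled cells by 4.74, while Cldn7, Cldn4 and Cldn3 changed there by 1.04, -0.27 and -0.67 and were not called. The difference between genotypes was not called for any of these claudins, with adjusted p-values of 0.16, 0.17 and 0.0744. Cldn3 lost its call without any 1 array and Cldn4 without 3 of them (up to 0.15), and Muc1 lost it without CD80hi sample 1 or CD80lo sample 2 (up to 0.0537).

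Of 16 keratin genes 7 rose and none fell (0 at unadjusted p-values below 0.05), at a median of 1.02. Krt20, of the gut lining, gave 689 and 1078 in CD80hi cells, against 24.9 and 26.7 in CD80lo cells, a change of 4.82 ± 0.35 (adjusted p = 3.35e-06). Krt10, of the differentiating layers of skin, gave 1623 and 1308 in CD80hi cells, against 179 and 72.9 in CD80lo cells, a change of 3.61 ± 0.54 (adjusted p = 0.000461), and its partner Krt1 gave 82.7 and 66.4 in CD80hi cells, against 10.6 and 19.3 in CD80lo cells, a change of 2.03 ± 0.42 (adjusted p = 0.00472). Both keratins of cornifying skin were thus higher on each CD80hi array than on either CD80lo array. The keratins of simple and basal epithelia were not called, at -0.92 for Krt18, -0.54 for Krt19 and -0.68 for Krt17. In knockout-labelled cells 2 of the 16 keratins were called higher, Krt20 at 4.31 and Krt10 at 2.63, and 4 lower. Krt19 was one of these, with 17.5 and 17.5 on the knockout-labelled CD80hi arrays and 949 and 741 on the knockout-labelled CD80lo arrays, a change of -5.24 ± 0.45 (adjusted p = 9.74e-06), which differed from the wild-type change by 4.70 ± 0.64 (adjusted p = 0.00264). The Krt1 call was lost without CD80hi sample 1 or CD80lo sample 1 (adjusted p of up to 0.067).

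In the list of eicosanoid, retinoid and steroid signalling, which also holds the histamine gene Hdc, 7 of 24 tested genes rose and 1 fell, with a median of 0.48. Hdc, which makes histamine from histidine, gave 2106 and 2327 in CD80hi cells, against 220.4 and 137 in CD80lo cells, a change of 3.63 ± 0.64 (adjusted p = 0.00149). Other enzymes of histidine and histamine breakdown were among the 20 largest rises, Aoc1, the diamine oxidase, with 1564 and 1609 in CD80hi cells, against 65.2 and 66.2 in CD80lo cells and a change of 4.50 ± 0.37 (adjusted p = 7.2e-06), and Hal, histidine ammonia-lyase, with 390.3 and 411 in CD80hi cells, against 19.8 and 10.8 in CD80lo cells and a change of 4.37 ± 0.42 (adjusted p = 2.15e-05). All 3 genes rose in knockout-labelled cells as well, by 4.10, 4.25 and 4.65. Hdc is also a gene of mast cells and basophils. Of 9 tested markers of these cells, a list added after seeing values, 4 rose and none fell (0 at unadjusted p-values below 0.05), Hdc with the protease genes Mcpt1 and Mcpt2 and the serotonin-synthesis gene Tph1 at 2.89, 3.31 and 2.82, and their sums were 2617 and 2833 on the CD80hi arrays and 402 and 324 on the CD80lo arrays. Kit gave 77.3 and 72.7 on the CD80hi arrays and 50.5 and 56.2 on the CD80lo arrays and was not called, and Mcpt8 was dim on all 4 arrays. The part of such cells in the Hdc result was not tested.

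Among prostaglandin genes, Pla2g4a and Ptgs2 rose and Hpgd fell, while the synthase genes Ptges, Ptgis and Tbxas1 were not called, at 0.22, 0.08 and -0.05. For Ptgds, the gene of a further synthase, 2 of 3 probe sets were called higher, and the 3 changes ran between 0.94 and 3.18. Pla2g4a, which frees arachidonic acid, gave 323 and 401 in CD80hi cells, against 64 and 60 in CD80lo cells, a change of 2.45 ± 0.60 (adjusted p = 0.0141). Ptgs2, the inducible cyclooxygenase, gave 379.9 and 444 in CD80hi cells, against 50.5 and 79.6 in CD80lo cells, a change of 2.60 ± 0.65 (adjusted p = 0.0162). Hpgd, which inactivates prostaglandins, gave 104 and 119 in CD80hi cells, against 815 and 839 in CD80lo cells, a change of -2.85 ± 0.68 (adjusted p = 0.0123). The direction held for all 3 in knockout-labelled cells, at 3.52, 4.0 and -2.19, each called. In wild type, however, every 1 of these 3 calls was lost without any 1 of the 4 arrays, with adjusted p-values of up to 0.13. Ch25h, which makes the oxysterol 25-hydroxycholesterol, was among the 20 largest falls, with 18.5 and 25.8 in CD80hi cells, against 291 and 633 in CD80lo cells and a change of -4.02 ± 0.41 (adjusted p = 2.54e-05). The retinoid genes Stra6, for retinol uptake, and Crabp1, a binding protein, rose by 2.79 ± 0.59 (adjusted p = 0.00543) and by 2.49 ± 0.45 (adjusted p = 0.00183), both from signals near the floor of the array in CD80lo cells, and the Stra6 call was lost without CD80hi sample 2 (adjusted p = 0.0524).

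Metabolic genes were called in both directions, where 8.62% of all genes were called higher and 4.84% lower. Me1, the malic enzyme that supplies NADPH, gave 1028 and 942 in CD80hi cells, against 156 and 145 in CD80lo cells, a change of 2.67 ± 0.56 (adjusted p = 0.00523). Sqle, the epoxidase of cholesterol synthesis, changed by 1.24 ± 0.30 (adjusted p = 0.0138), and of 24 cholesterol and fatty acid genes 4 rose and 1 fell. In glutathione and xenobiotic metabolism 8 of 44 genes rose and 2 fell. The transferase genes Gsta2 and Gsta4 gave 794 and 531 and 122 and 66.9 in CD80hi cells, against 34.1 and 26.5 and 12.8 and 9.7 in CD80lo cells. Gpx3, the secreted glutathione peroxidase, changed by -1.84 ± 0.41 (adjusted p = 0.00811). Glutathione synthesis was not called, with Gclc at 0.41 and Gss at 1.0. Calls of Sqle and Gpx3 were lost without CD80hi sample 2 or CD80lo sample 1, at adjusted p-values of up to 0.19.

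Survival and death genes had 4 of 35 members higher, against 8.62% of all genes, and none lower (0 at unadjusted p-values below 0.05). Bcl2l1, which encodes the survival protein Bcl-xL, gave 616 and 546 in CD80hi cells, against 112 and 88.9 in CD80lo cells, a change of 2.48 ± 0.55 (adjusted p = 0.00752). Cideb, a protein of lipid droplets and cell death, gave 122 and 58.2 in CD80hi cells, against 10.6 and 4.4 in CD80lo cells, a change of 2.91 ± 0.52 (adjusted p = 0.00168). Casp1, the caspase of inflammasomes, changed by 1.67 ± 0.38 (adjusted p = 0.00882) and Bnip3, a mitochondrial death protein, by 1.82 ± 0.56 (adjusted p = 0.048). Bcl2 was not called, at -0.79. All 4 rising genes were called higher in knockout-labelled cells too. In wild type the calls of Casp1 and Bnip3 were lost without any 1 of the 4 arrays, at up to 0.26, and that of Bcl2l1 without CD80hi sample 1 or CD80lo sample 2, at up to 0.072.

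Several groups of cell machinery showed few or no calls. None of 41 chromatin modifiers, 42 oxidative phosphorylation genes or 30 proteasome genes was called in limma, with medians of -0.32, 0.17 and 0.07. At an unadjusted p under 0.05 the chromatin list held 0 higher and 5 lower, oxidative phosphorylation 1 and 0, and the proteasome 2 and 0. In 23 genes of Aire's partners and of transcriptional elongation the call was Xrcc5, which encodes the DNA repair protein Ku80, with 16.5 and 18.9 in CD80hi cells, against 92.3 and 104 in CD80lo cells and a change of -2.20 ± 0.42 (adjusted p = 0.00298). Of 41 genes of the endoplasmic reticulum and unfolded protein response, Creld2 rose by 1.61 ± 0.47 (adjusted p = 0.0352), a call lost without any 1 of the 4 arrays (up to 0.25) and with the sample number as a block, and Hspa5, the main chaperone, was not called, at 0.45. Of 22 ribosomal protein genes 1 fell and of 18 heat shock genes 1 fell, near the 4.84% of all genes that fell. Their medians were -0.53 and -0.55, and 3 and 4 genes were lower and 0 higher at unadjusted p-values below 0.05. Over all 9319 probe sets, 1186 passed the adjusted threshold and 2221 had an unadjusted p under 0.05.

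Genes of myeloid and red cells were among the rises, where 8.62% of all genes were called higher and 4.84% lower. Of 18 macrophage markers 4 rose and none fell (1 at unadjusted p-values below 0.05), with Lyz2, lysozyme, at 593 and 498 in CD80hi cells, against 41.2 and 29.2 in CD80lo cells and Mrc1, the mannose receptor, at 128 and 113 in CD80hi cells, against 0.9 and 5.7 in CD80lo cells. Yet the sum over the macrophage list was 4047 and 3662 in CD80hi cells, 5940 and 4727 in CD80lo cells and 15573 and 29992 in thymic macrophages, and Adgre1, Fcgr3, Mertk and Msr1 were dim on all 4 wild-type CD80 arrays. Of 10 erythroid genes 3 rose, with Alas2, the enzyme of haem synthesis, at 71.7 and 60 in CD80hi cells, against 10.5 and 3.2 in CD80lo cells, a call lost without CD80lo sample 2 (adjusted p = 0.0511). For 16 granulocyte genes, a list added after seeing values, 10 rose and 1 fell, with a median of 2.08, and the sums were 2409 and 2166 in CD80hi cells, 1002 and 960.2 in CD80lo cells, 582 and 338 in thymic macrophages and 320 and 295 in thymic dendritic cells. Ly6g, a neutrophil antigen, gave 215 and 258 in CD80hi cells, against 1.5 and 6.1 in CD80lo cells in wild type and 8.1 and 33.5 on the knockout-labelled CD80hi arrays and 1.8 and 11.8 on the knockout-labelled CD80lo arrays. The 2 granule protein genes with the smallest p, Prg2 of eosinophils and Ngp of neutrophils, rose by 4.09 ± 0.34 (adjusted p = 7.2e-06) and by 4.06 ± 0.34 (adjusted p = 8.48e-06). The granulocyte receptor gene Csf3r gave 118 and 137 on the CD80hi arrays and 113 and 134 on the CD80lo arrays and was not called. The part of such cells in the cytokine and chemokine results was not tested.

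Whether a change with CD80 differed between genotypes was tested as the difference of the 2 changes. Of all genes 85 had a more positive change in wild type (1.23%) and none a more negative one. In limma over all probe sets, 121 passed the adjusted threshold, 34 to 99 when each of the 8 CD80-sorted arrays was left out in turn, and as reported 775 had an unadjusted p under 0.05. Igf2, the insulin-like growth factor, gave 717 and 481 in CD80hi cells, against 65.2 and 66.8 in CD80lo cells in wild type, a change of 3.06 ± 0.43 (adjusted p = 0.000298). On the knockout-labelled arrays it gave 41.9 and 118 in CD80hi cells and 671 and 428 in CD80lo cells, a change of -2.84 ± 0.43 (adjusted p = 0.000582), and the difference between genotypes was 5.90 ± 0.61 (adjusted p = 0.000467). Cdkn1c, which is imprinted like Igf2, differed by 3.88 ± 0.42 (adjusted p = 0.000595). Igfbp2, an insulin-like growth factor binding protein, fell in both genotypes, with changes of -1.98 ± 0.32 (adjusted p = 0.000874) in wild type and -4.01 ± 0.32 (adjusted p = 6.48e-06) in knockout-labelled cells, a difference of 2.03 ± 0.45 (adjusted p = 0.0447).

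Epha2 and Erbb3, genes of receptor tyrosine kinases, also differed. Epha2 gave 91.2 and 66.7 in CD80hi cells, against 7.6 and 7.8 in CD80lo cells in wild type and changed by -0.76 in knockout-labelled cells, a difference of 3.49 ± 0.58 (adjusted p = 0.00766). Erbb3 gave 265 and 293 in CD80hi cells, against 106 and 110.3 in CD80lo cells in wild type and changed by -0.78 in knockout-labelled cells, a difference of 2.11 ± 0.42 (adjusted p = 0.0285). The wild-type Erbb3 call was lost without any 1 of the 4 arrays (adjusted p of up to 0.08). For Tnf, which rose in both genotypes, the difference was 2.63 ± 0.57 (adjusted p = 0.0428). No such difference was called for leading genes of the systems in which genes fell in CD80hi cells. The estimates were -1.03 for Lifr, 0.17 for Il6st, 0.84 for Id1, -0.49 for Gas1, -0.03 for Jag2 and 1.57 for Ifit3, and a missed threshold does not show equal change.

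**Figure D5:**
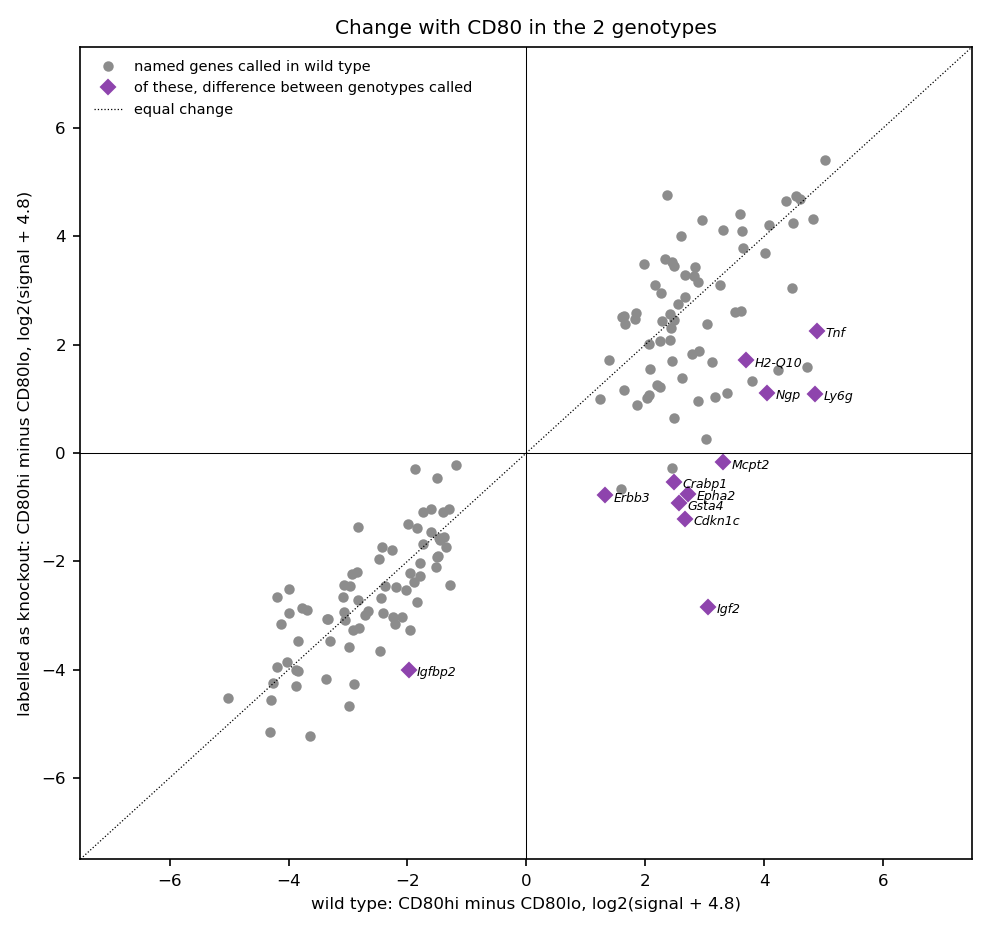
Change between CD80hi and CD80lo cells on the log2(signal + 4.8) scale, wild type on the horizontal axis and labelled as knockout on the vertical axis, for the genes named in the text and called in wild type. The dotted line marks equal change, and purple diamonds are genes whose change differed between genotypes. The purple genes lie below the dotted line, and genes that fell in wild type lie to the lower left.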

How the data were processed

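Total RNA of FACS-sorted thymic cells was measured on Affymetrix mouse arrays, per the labels, in 16 samples that titles put into 8 groups of 2. The authors deposited 1 linear intensity per probe set and array for 12488 probe sets. Every array had a 2%-trimmed mean of 100.1, so the values were used as deposited. Which software the authors ran is not given in the sources used here. Set aside were 66 control probe sets and 3103 others that were above 17.3, the 40th percentile, on fewer than 2 arrays, which left 9319. Of these, 8356 had 1 gene in the platform annotation, for 6922 genes. In all, 10833 probe sets had 1 symbol, 396 several and 1193 none listed, and 10839 symbols were brought up to date from RefSeq genes of GRCm38.p6.

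The wild-type CD80hi minus CD80lo contrast was tested on log2(signal + 4.8) in 1 limma model (3.58.1, R 4.3.3) of 8 group means over all 16 arrays, by lmFit and trended eBayes (degrees of freedom 8 residual, 5.97 prior), 2-sided, with Benjamini-Hochberg adjustment over the 9319 probe sets. Precision is limited by the number of arrays. Pearson correlations of replicates over probe sets were 0.966 in CD80hi and 0.964 in CD80lo cells, and in no group did the 2 arrays hold identical values throughout.

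Named genes were Cd80, Aire, the 20 largest rises and falls (those of other tissues left out), up to 8 called members with the smallest p per list, and up to 6 uncalled ligands, receptors, enzymes or markers per list; exceptions are said to be chosen after their values were seen. The 46 lists, the members and the rule were chosen with earlier results of these data known. A gene is called dim where no array of a comparison exceeded 17.3. Promoter windows and their coordinates are from RefSeq. Fits were tested on simulated data. Alternatives were quantile normalisation, constants of 1 and 17.3, no filter, a filter above 50, no trend, only the 4 or the 8 CD80-sorted arrays, the sample number as a block, each array left out, and a gene's mean over its probe sets.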

Additional observations from a re-analysis of the deposited data

Results flagged for a closer look

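For 13 of the genes named above, the change with CD80 differed between wild-type and knockout-labelled mTEC in the limma test of the difference itself. In all 13 it was more positive in wild type. The difference on the log2 scale was 5.90 for Igf2, 4.70 for Krt19, 3.88 for Cdkn1c, 3.77 for Ly6g, 2.94 for Ngp, 3.48 for Mcpt2, 3.51 for Gsta4, 3.49 for Epha2 and 3.03 for Crabp1. It was 2.63 for Tnf, 2.11 for Erbb3, 2.03 for Igfbp2 and 1.99 for H2-Q10. Standard errors ran between 0.42 and 0.78, and the largest adjusted p was 0.0447, for Igfbp2. Krt19, of simple epithelia, gave 198 and 124 on the CD80hi arrays and 267 and 199 on the CD80lo arrays in wild type and was not called there, whereas on the knockout-labelled arrays it gave 17.5 and 17.5 in CD80hi cells and 949 and 741 in CD80lo cells. Groups of 2 samples were too small to look for single samples far from the others.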

How the results depend on the processing

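As reported, 744 probe sets were called higher and 442 lower in wild-type CD80hi cells. A fit to only the 4 wild-type CD80 arrays called 1304 higher and 1152 lower. Leaving out each of the 4 arrays in turn gave 428 to 477 higher and 177 to 204 lower, with 1 group then resting on 1 array that is assumed to vary like the other groups. Quantile normalisation, other constants, filters and the fit without trend stayed within 1.5 times of both counts. The number of probe sets whose change differed between genotypes was 121 as reported, 44 with a constant of 1, 216 with a constant of 17.3, 77 with only the 8 CD80-sorted arrays and 34 to 99 without each of the 8 arrays in turn. The cause of these moves was not tested. With the sample number as a replicate block, 681 were higher, 383 lower and 101 differed between genotypes. Samples of the same number deviated together at a Pearson r of 0.17 between the wild-type CD80 groups. Between the knockout-labelled CD80 groups the r was 0.52, and 2 numbers do not establish a pairing. Of 154 named genes called as reported, 97 kept their call without each of the 4 arrays in turn and 23 lost it whichever of the 4 was left out. Under the remaining alternatives calls were lost for Bnip3, Ccl17, Ccl22, Itgb4, Lama3, Lamb3, Tnfrsf9, Creld2, Mcm3 and Tk1, whose mean over 2 probe sets changed by -0.42. None of the 154 changed its direction under any of these alternatives. Of 51 named genes not called, 15 passed with only the 4 wild-type CD80 arrays. Genes not called that changed sign were Foxn1 with quantile normalisation (-0.0666), Ptgis with a constant of 17.3 (-0.0231) and, as the mean over their probe sets, Col1a2 (-0.94) and Stat3 (0.0487). Without each array in turn, ranges spanning 0 ran between -0.10 and 0.26 for Foxn1, -0.14 and 0.27 for Col1a2, -0.22 and 0.15 for Stat3, -0.071 and 0.17 for Csf3r, -0.55 and 0.011 for Pdgfra, -0.0512 and 0.44 for Cdh1, -0.19 and 0.45 for Epcam, -0.0107 and 0.60 for Itgax, -0.12 and 0.29 for Pecam1, -0.52 and 0.0169 for Ptch1, -1.07 and 0.0049 for Myh9, -1.35 and 0.328 for Bmpr2, -0.081 and 0.519 for Ptges, -0.789 and 0.94 for Ptgis and -0.137 and 0.0355 for Tbxas1.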

Other observations

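Some genes outside the described groups were among the 20 largest falls in wild-type CD80hi cells. Cpxm1, a secreted carboxypeptidase-like protein, gave 13.6 and 11.4 in CD80hi cells, against 327 and 266 in CD80lo cells, a change of -4.12 ± 0.45 (adjusted p = 4.42e-05). Mgp, the matrix Gla protein that inhibits calcification, gave 19.7 and 16.4 in CD80hi cells, against 376 and 291 in CD80lo cells, a change of -3.88 ± 0.39 (adjusted p = 2.37e-05) from a probe set with shared probes. Both also fell in knockout-labelled cells, at -3.17 and -4.00. Saa3, an acute-phase protein, was among the 20 largest rises, with 2798 and 2079 in CD80hi cells, against 107 and 43.9 in CD80lo cells and a change of 5.03 ± 0.77 (adjusted p = 0.00055), and it changed by 5.40 in knockout-labelled cells.

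Matrix-degrading enzymes changed in both directions, with 4 of 22 tested genes of matrix proteolysis higher and 2 lower, against 8.62% and 4.84% of all genes. Mmp7, a protease of glandular epithelium, gave 278 and 272 in CD80hi cells, against 25.6 and 23 in CD80lo cells, a change of 3.27 ± 0.49 (adjusted p = 0.000477). Mmp9, a gelatinase, gave 83.9 and 75.7 in CD80hi cells, against 506 and 560.2 in CD80lo cells, a change of -2.67 ± 0.66 (adjusted p = 0.0141). Serpinb2, an inhibitor of plasminogen activators, gave 1130.4 and 964 in CD80hi cells, against 34.5 and 35.5 in CD80lo cells, a change of 4.72 ± 0.52 (adjusted p = 4.52e-05) from a probe set with shared probes, and F3, the tissue factor gene that starts coagulation, gave 42 and 59.5 in CD80hi cells, against 330 and 561 in CD80lo cells, a change of -2.99 ± 0.46 (adjusted p = 0.000631). The Mmp9 call was lost without any 1 of the 4 arrays, with an adjusted p of up to 0.095.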
